A study of Homo sapiens with 6 samples.

Results

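Newly made RNA of NuMA knockdown cells treated with hydrogen peroxide (H2O2) was set against that of untreated wild type cells, both of the line RPE1, an immortalised human line from the retinal pigment epithelium. The comparison joined 4 of the series' 6 libraries, 2 per group, and covered 9303 genes of 60448 in the deposited tables. RNA was measured by 4sU-seq, in which cells take up the uridine analogue 4-thiouridine and the RNA made in that time is collected and sequenced. The first group carried the label NuMA (TDIF)-KD, had received doxycycline, which switches the knockdown on, and H2O2. The other was labelled wild type and had received neither agent. Wild type cells treated with H2O2 and without doxycycline, the third group, were not part of the comparison, and their values are given beside it. The knockdown of NuMA, the doxycycline and the H2O2 cannot be told apart in a difference between these groups. The dose of H2O2, the times, the knockdown construct and whether the line was 1 clone are not given in the sources used here, and the libraries are not said to come from separate cultures. Since RNA was pooled over cells, fewer cells of a kind and less RNA per cell cannot be told apart either.

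The authors deposited 1 value per gene and group, pooled over the 2 libraries, so no test and no spread between libraries could be had. A value is the mean read count of the libraries plus 1, per gene length, and mean counts per library were worked out from it. Genes entered when the mean of the values of both groups was at least 5, which is about 121 mean counts for a gene of 1500 bases. The log2 difference is that of the knockdown group minus untreated wild type, relative to the median of 8416 genes with both values at least 5. A gene is called here when it stood at least 2-fold from that median gene. A gene with 1 of its values below 5 passed the filter through the other group alone, so its value had to be higher in that group. This holds for members of the gene lists as well. Among the 8416 genes with both values at least 5, 641 were called higher and 834 lower. Each log2 difference is printed with an error limit, an approximate upper limit on its standard error that was computed from the authors' deposited p-values of their own comparisons with H2O2-treated wild type. Its median over genes was 0.26. Among the called genes, 98.4% (2009 of 2041) lay more than 2 error limits from 0, which leaves 865 higher genes (9.3%) and 1144 lower genes (12.3%). Since a call already needs 2-fold and the median limit was 0.26, most calls had to pass this. The share is therefore no separate check of the calls.

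H2O2 oxidises bases and breaks DNA strands, and cells answer oxidants and other sudden stimuli by transcribing immediate early genes, which need no new protein to be switched on. Most of these encode transcription factors such as the AP-1 and EGR families. The nuclear protein NuMA, the product of NUMA1, gathers microtubules at the poles of the mitotic spindle through the motor dynein. In dividing cells, genes for DNA replication are transcribed under E2F factors, and those for mitosis later in the cycle, through promoters that carry the cell cycle homology region (CHR).

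The gene NUMA1 (chromosome 11, 72002864 to 72080693, hg38, minus strand) had mean counts of 933.5 in H2O2-treated knockdown libraries, 1571 in H2O2-treated wild type and 1168 in untreated wild type. The log2 difference between knockdown and untreated wild type was -0.38 ± 0.24 (error limit), which is under 2 error limits and short of a call. Against wild type cells with the same treatment, the authors' deposited table gives a log2 change of -0.75 for it (adjusted p = 1.42e-08). That value is not centred on the median gene, and its adjusted p belongs to the value without centring. Relative to the median gene the same difference was -0.51, to which that p does not apply. The target of the knockdown thus lay below both wild type groups in count, while its RNA was still read in the knockdown.

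Of the 9303 genes, 874 (9.39%) were at least 2-fold higher in H2O2-treated knockdown cells than in untreated wild type, and 1167 (12.5%) were at least 2-fold lower, together 21.9%. At least 4-fold differences were found for 175 higher genes (1.88%) and 213 lower genes (2.29%), and at least 8-fold differences for 74 higher (0.795%) and 43 lower (0.462%). Within 1.5-fold lay 5139 genes (55.2%). The balance of higher and lower calls depended on the scaling: 42.8% of calls were higher relative to the median gene, and 32.1% (688 higher, 1458 lower) when the groups were scaled by their total counts, which lowers every log2 difference by 0.13. Total mean counts per library were 16827839 in the knockdown, 18341697 in H2O2-treated wild type and 14786576 in untreated wild type. Mitochondrially encoded genes took 11% of those counts in the knockdown, 6.35% in H2O2-treated and 14.3% in untreated wild type. Scaling by totals without the mitochondrial genes lowered every log2 difference by 0.19 and left 28.3% of calls higher.

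**Figure D1:**
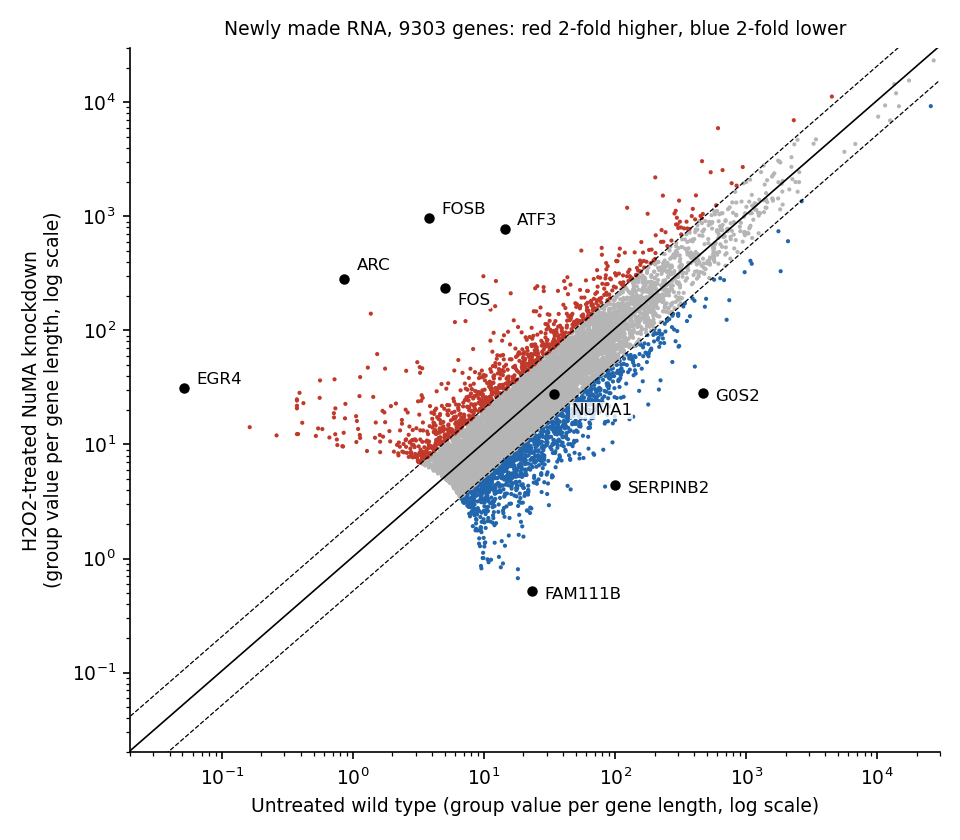
Group value per gene length in H2O2-treated NuMA knockdown cells (vertical, log scale) against untreated wild type (horizontal, log scale), 1 point per gene, pooled over 2 libraries per group. The solid line is the median gene, the dashed lines are 2-fold from it, and the 874 higher genes are red and the 1167 lower genes blue, with EGR4, ARC and FOSB farthest above the line and FAM111B, SERPINB2 and G0S2 among those farthest below it.

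The largest positive differences were led by immediate early genes. EGR4, a zinc finger factor of the EGR family (chromosome 2, 73290929 to 73293705), had mean counts of 1211 in H2O2-treated knockdown, 527.5 in H2O2-treated wild type and 1 in untreated wild type. The ratio was 584 with 1 added to each mean count, and the 95% counting interval, from counts without the added 1, ran from 323 to 9637. With 2 reads in both untreated libraries together, the size of the ratio is poorly fixed. ARC, named for its activity-regulated expression in neurons, had 7780.5 mean counts in knockdown, 2911.5 in H2O2-treated and 22.5 in untreated wild type, a log2 difference of 8.32 ± 0.29 (error limit). FOSB, a subunit of the AP-1 factor (chromosome 19, 45467995 to 45475179), had 39704.5 mean counts in knockdown, 13025 in H2O2-treated and 156.5 in untreated wild type, a 243-fold difference. In these 3 genes the knockdown was the highest group and untreated wild type the lowest by a wide margin.

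The stress factor ATF3 stood at 15567 mean counts in knockdown, 7141 in H2O2-treated wild type and 288 in untreated wild type, 51.9-fold above untreated wild type. FOS, the partner of JUN in AP-1, differed from these in its order: it had 3844 mean counts in knockdown against 7668.5 in H2O2-treated wild type and 80.5 in untreated wild type. Its log2 difference from untreated wild type was 5.51 ± 0.24 (error limit), so it was far above untreated cells although below wild type cells given H2O2. DUSP2, a phosphatase that switches off MAP kinases, had 5983.5 mean counts in knockdown, 3232 in H2O2-treated and 197.5 in untreated wild type, 29-fold above untreated wild type. GAST, the precursor of gastrin, had 216.5 mean counts in knockdown, 77 in H2O2-treated and 2 in untreated wild type, and VAMP8, a SNARE protein of vesicle fusion, had 188 in knockdown, 78.5 in H2O2-treated and 4 in untreated wild type. Both rest on few reads in untreated wild type, and their 95% counting intervals ran from 40.4- to 384-fold and from 22.7- to 106-fold. KIAA1683 was 39.0-fold and C11orf96 98.6-fold higher. The length used for C11orf96 could not be settled, so its counts are not printed. Of the 10 genes with the largest positive differences, all but ATF3 and DUSP2 had untreated values below 5. They passed the filter through the knockdown value alone and so had to be higher.

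Of the 40 listed immediate early genes, 38 passed the filter. Of these, 23 were at least 2-fold higher in H2O2-treated knockdown than in untreated wild type and 3 at least 2-fold lower, against 9.39% and 12.5% of all genes. The median log2 difference was 1.72, against -0.01 over all genes, and 15 members were at least 4-fold higher, against 1.88% of all genes. Members such as EGR4, ARC, FOSB and FOS had untreated values below 5 and passed the filter through the knockdown value alone. They had to be higher, so these counts are a description. Over members with both values at least 5, the median was 1.22. The lower members were MYC, a growth-promoting transcription factor (-1.42 ± 0.24, error limit, as for the following), NFKBIA, the inhibitor that holds NF-kB in the cytoplasm (-1.26 ± 0.21), and the AP-1 subunit FOSL1 (-1.09 ± 0.22). NFKBIA had 1084 mean counts in knockdown, 4796.5 in H2O2-treated and 2500 in untreated wild type. It was thus low in the knockdown against both wild type groups. NR4A3 and EGR2 did not pass the filter.

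The promoters of 2 immediate early genes are shown as examples of motifs from the promoter search described further on. The TATA box was in 8 of 26 immediate early promoters, and the CArG box in 1 of 26, which is that of EGR1. FOSB (chr19:45467746-45468045, plus strand) has a TATA box with its first base at position -30, counted from the annotated start as 0. EGR1 (chr5:138465229-138465528, plus strand), singled out after its values were seen, has 2 CArG boxes, the element bound by serum response factor, with first bases at -105 and -83. EGR1 had 7790 mean counts in knockdown, 5524 in H2O2-treated wild type and 573 in untreated wild type, a log2 difference of 3.71. Both sequences run from 250 bases before to 50 after the start (RefSeq, GRCh38.p14), with the motifs in capitals.
FOSB: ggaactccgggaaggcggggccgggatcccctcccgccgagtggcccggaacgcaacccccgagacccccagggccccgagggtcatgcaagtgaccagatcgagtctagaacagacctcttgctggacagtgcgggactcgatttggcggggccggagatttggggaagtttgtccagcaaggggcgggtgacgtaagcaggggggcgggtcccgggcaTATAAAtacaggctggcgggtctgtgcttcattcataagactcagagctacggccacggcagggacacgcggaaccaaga
EGR1: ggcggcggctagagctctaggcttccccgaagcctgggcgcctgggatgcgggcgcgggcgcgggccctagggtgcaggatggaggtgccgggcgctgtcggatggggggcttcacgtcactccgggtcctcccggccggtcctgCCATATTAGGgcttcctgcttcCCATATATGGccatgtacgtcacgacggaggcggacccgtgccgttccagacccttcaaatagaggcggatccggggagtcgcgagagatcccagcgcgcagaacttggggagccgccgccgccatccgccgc

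**Figure D2:**
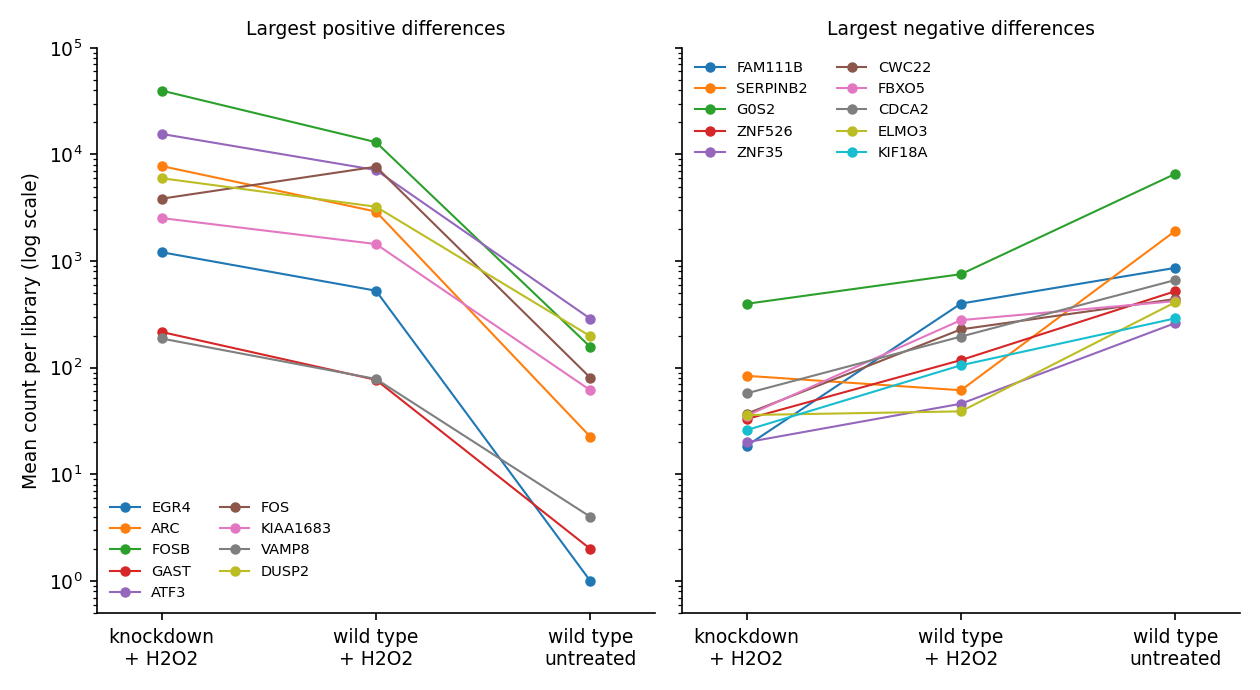
Mean count per library (log scale) of the protein-coding genes with the largest positive (left) and negative (right) log2 differences, in H2O2-treated knockdown, H2O2-treated wild type and untreated wild type, 1 pooled value per group with no error bars. C11orf96 is left out for its unsettled length. In the left panel untreated wild type is lowest for all 9 genes, and FOS is the only one of them whose count was lower in knockdown than in H2O2-treated wild type. In the right panel untreated wild type is highest for all 10 genes. All genes but ATF3, DUSP2 and G0S2 passed the filter through the value of 1 group alone, so their direction between knockdown and untreated wild type had to be as shown.

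Many genes of cholesterol synthesis were higher in H2O2-treated knockdown than in untreated wild type. In the list of cholesterol synthesis and uptake, 22 of 24 genes passed the filter, and 17 of them (77.3%) were at least 2-fold higher and none lower, against 9.39% and 12.5% of all genes, with a median log2 difference of 1.77. MSMO1, a sterol demethylase, had 5769 mean counts in knockdown, 9937 in H2O2-treated wild type and 870 in untreated wild type. TM7SF2, a sterol reductase, had 2240 in knockdown, 1231 in H2O2-treated and 364 in untreated wild type, and DHCR7, which makes cholesterol in the last step of one branch of the pathway, had 3812 in knockdown, 5823.5 in H2O2-treated and 629 in untreated wild type. TM7SF2 was thus highest in the knockdown, whereas MSMO1 and DHCR7 were highest in wild type cells given H2O2. HMGCS1, which makes HMG-CoA, showed the largest gap between the H2O2-treated groups among the list members named here, with 738 mean counts in knockdown, 3820.5 in H2O2-treated and 122.5 in untreated wild type.

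Genes of the cholesterol list that passed the filter without a call included PMVK (-0.60 ± 0.26, error limit), EBP (-0.05 ± 0.24), NSDHL (0.17 ± 0.25) and SC5D (0.58 ± 0.29). CYP51A1 was among the genes that did not pass the filter. Over the list, the median log2 difference of H2O2-treated from untreated wild type was 2.21, and that of knockdown from H2O2-treated wild type was -0.51. These component values share the H2O2-treated wild type libraries.

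All 15 genes of fatty acid synthesis and desaturation passed the filter, with 5 (33.3%) at least 2-fold higher, none lower and a median of 0.81, where 9.39% of all genes were higher and 12.5% lower. The other 10 were not called. SCD, the desaturase that makes oleic acid, had 10552 mean counts in knockdown, 21133.5 in H2O2-treated wild type and 631 in untreated wild type, a log2 difference of 4.01 ± 0.20 (error limit). The other called members were FADS2 (2.5), SREBF1 (2.12), FASN (1.98) and ACSS2 (1.46), which encode a second desaturase, a factor that drives lipid synthesis, fatty acid synthase and an acetyl-CoA synthetase. SREBF1 was highest in the knockdown, with 3191 mean counts against 2712 in H2O2-treated and 705 in untreated wild type. At the low end of the list, ELOVL6, ACSL1 and ELOVL1 had log2 differences of -0.74, -0.44 and -0.26, none of them a call.

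Of 22 listed targets of SRF or YAP, among them genes of the actin cytoskeleton, 21 passed. Of these, 5 (23.8%) were at least 2-fold higher and none lower, against 9.39% and 12.5% of all genes, with a median of 0.75. ACTA2, smooth muscle actin, was 7.45-fold, CNN1, the actin-binding calponin, 3.79-fold, TAGLN, transgelin, 2.42-fold, ACTB, cytoplasmic beta-actin, 2.39-fold and MYL9, a myosin light chain, 2.16-fold above untreated wild type. TAGLN had 17939 mean counts in knockdown, 27431.5 in H2O2-treated wild type and 7152.5 in untreated wild type. ANKRD1 and CTGF, YAP targets, did not share this order: CTGF had 15435 mean counts in knockdown, 38520.5 in H2O2-treated and 19361.5 in untreated wild type, a log2 difference of -0.38 ± 0.21 (error limit), and ANKRD1 was at -0.43 ± 0.21. CYR61, also a YAP target, was lowest of the list at -0.97 ± 0.20. ACTG2 did not pass the filter. Actin genes have near-identical copies among which the counting could split reads, so single values of ACTB and ACTA2 are uncertain.

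Most listed genes of mitosis were lower. In the mitosis list 32 of 34 genes passed, of which 30 were at least 2-fold lower in H2O2-treated knockdown than in untreated wild type, against 12.5% of all genes, and none higher. The median log2 difference was -2.0, and 16 members were at least 4-fold lower, against 2.29% of all genes. CKAP2L, a spindle protein, had mean counts of 73.5 in knockdown, 395.5 in H2O2-treated wild type and 791.5 in untreated wild type. NUF2, a part of the kinetochore complex that holds microtubules, had 70.5 in knockdown, 365 in H2O2-treated and 714.5 in untreated wild type, and AURKB, the kinase of the chromosomal passenger complex, had 231.5 in knockdown, 437.5 in H2O2-treated and 1824 in untreated wild type. In each of these the groups ran in the same order, knockdown lowest and untreated wild type highest. The list members without a call were BUB3 (-0.40 ± 0.22, error limit), a spindle checkpoint protein, and CDC25C (-0.66 ± 0.40), a phosphatase that activates CDK1. KIF20A, a kinesin of cytokinesis, was 2.29-fold lower. ANLN, which scaffolds the cleavage furrow, was 2.52-fold lower and stood out in its order, with 670.5 mean counts in knockdown, 2715 in H2O2-treated wild type and 1627 in untreated wild type. CENPE and SGOL1 did not pass the filter.

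Promoters of 2 low list members, picked among those that hold the CHR motif TTTGAA, are printed with it in capitals, on either strand (TTCAAA on the other). CKAP2L (chr2:112764560-112764859, minus strand) holds 2 matches, with first bases at -86 and -17, and NUF2 (chr1:163321704-163322003, plus strand) holds 1, at 16.
CKAP2L: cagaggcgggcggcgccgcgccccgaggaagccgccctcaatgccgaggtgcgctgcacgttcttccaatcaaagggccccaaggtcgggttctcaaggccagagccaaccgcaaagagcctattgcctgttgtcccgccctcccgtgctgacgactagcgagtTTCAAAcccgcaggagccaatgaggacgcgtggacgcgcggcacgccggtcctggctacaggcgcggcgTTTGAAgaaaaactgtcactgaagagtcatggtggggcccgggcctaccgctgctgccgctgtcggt
NUF2: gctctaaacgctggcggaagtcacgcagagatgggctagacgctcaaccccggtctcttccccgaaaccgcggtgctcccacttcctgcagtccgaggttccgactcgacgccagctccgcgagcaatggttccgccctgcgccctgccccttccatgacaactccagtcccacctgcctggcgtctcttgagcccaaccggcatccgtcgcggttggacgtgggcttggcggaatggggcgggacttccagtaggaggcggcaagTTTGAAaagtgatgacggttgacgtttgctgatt

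In the DNA replication list 30 of 32 genes passed, 24 (80%) were at least 2-fold lower and none higher, against 12.5% and 9.39% of all genes, with a median of -1.31. CDT1, which loads the replicative helicase onto origins, had 403 mean counts in knockdown, 938 in H2O2-treated wild type and 2469.5 in untreated wild type, a log2 difference of -2.67 ± 0.26 (error limit). RFC4, a subunit of the clamp loader, had 132 in knockdown, 475.5 in H2O2-treated and 651 in untreated wild type, and FEN1, the flap endonuclease that trims Okazaki fragments, had 533 in knockdown, 1491.5 in H2O2-treated and 2151 in untreated wild type. Among the 6 without a call were PCNA, the sliding clamp (-0.40 ± 0.23), UHRF1 (-0.74 ± 0.24) and TYMS, thymidylate synthase (-0.78 ± 0.26). PCNA had 1900 mean counts in knockdown, 3180 in H2O2-treated and 2420 in untreated wild type. MCM10 and POLA1 did not pass the filter. The CDT1 promoter (chr16:88803539-88803838, plus strand) is shown with its 2 matches to an E2F-type motif, TTTNNCGC on either strand, with first bases at -213 and -35.
CDT1: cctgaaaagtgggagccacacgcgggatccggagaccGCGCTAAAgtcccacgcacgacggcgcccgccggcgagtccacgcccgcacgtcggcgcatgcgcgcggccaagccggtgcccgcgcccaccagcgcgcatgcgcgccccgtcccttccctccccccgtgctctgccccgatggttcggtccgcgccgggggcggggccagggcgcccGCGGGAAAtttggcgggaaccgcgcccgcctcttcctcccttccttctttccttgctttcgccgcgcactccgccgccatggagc

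Condensin and cohesin, the ring complexes that fold and hold chromosomes, were counted in 1 list. Of 17 genes 15 passed, 7 (46.7%) were at least 2-fold lower and none higher, against 12.5% and 9.39% of all genes, with a median of -0.99 (-0.65 over members with both values at least 5). The 5 lowest were subunits of condensin: SMC4, its ATPase shared by both condensin forms, NCAPG, NCAPH, NCAPG2 and SMC2. SMC4 had 33 mean counts in knockdown, 374 in H2O2-treated wild type and 250.5 in untreated wild type, 7.68-fold below untreated wild type. At the upper end of the list lay the cohesin subunits STAG2 at 0.41 ± 0.27 (error limit), RAD21 at 0.10 ± 0.24 and SMC1A at -0.39 ± 0.25. Of the 15 genes, 13 lay below 0, so these subunits do not stand for all cohesin genes of the list. PDS5B and STAG1 did not pass the filter.

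Among protein-coding genes with at least 100 mean counts in the higher of the groups, FAM111B had the largest negative difference, with 18.5 mean counts in knockdown, 399.5 in H2O2-treated wild type and 864 in untreated wild type, a log2 difference of -5.53 ± 0.38 (error limit). It encodes a protease-like protein and lies on chromosome 11 from 59107185 to 59127410. SERPINB2, an inhibitor of plasminogen activators, had 84 mean counts in knockdown, 61.5 in H2O2-treated and 1922 in untreated wild type, and G0S2, an inhibitor of the fat lipase ATGL, had 397.5 in knockdown, 754 in H2O2-treated and 6584.5 in untreated wild type. SERPINB2 was low in both H2O2-treated groups, as was ELMO3, an adaptor of Rac activation, with 36 in knockdown, 39 in H2O2-treated and 411.5 in untreated wild type. In FAM111B the knockdown lay far below both wild type groups. FBXO5, which restrains the anaphase-promoting complex, had 35.5 mean counts in knockdown, 279.5 in H2O2-treated and 421.5 in untreated wild type, and CWC22, a splicing factor, had 37 in knockdown, 229 in H2O2-treated and 441 in untreated wild type. CDCA2, which brings the phosphatase PP1 to chromosomes, was 11.8-fold lower, and KIF18A, a kinesin that limits microtubule length, 11.2-fold lower. The zinc finger genes ZNF526 and ZNF35 were 16-fold and 13.0-fold lower. Of these genes with the largest negative differences, all but G0S2 had knockdown values below 5. They passed the filter through the untreated value alone and so had to be lower.

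Some genes were far from untreated wild type in the knockdown although wild type cells given H2O2 were within 1.5-fold of untreated cells. That range is relative to the median gene of the wild type comparison, whose log2 ratio was 0.29, so ratios of the printed counts can exceed it. These genes were picked by a rule that uses both differences. A gap between knockdown and H2O2-treated wild type had to follow and is a description of how they were chosen. On the higher side these were led by MFI2, which encodes the iron-binding melanotransferrin and had 1055 mean counts in knockdown, 279.5 in H2O2-treated and 169.5 in untreated wild type. CSRNP1, a nuclear protein of the immediate early list, had 4935 in knockdown, 1553 in H2O2-treated and 1080 in untreated wild type, a log2 difference of 2.14 ± 0.22 (error limit). THOC6, a subunit of the mRNA export complex THO, REEP6, a shaper of the endoplasmic reticulum, and KDM4B, a histone H3 lysine demethylase, were at 1.81, 1.76 and 1.76. On the lower side the 5 leading genes were SMC4, NCAPG, ESCO2, which acetylates cohesin (37 mean counts in knockdown, 237.5 in H2O2-treated and 279 in untreated wild type), DTL, a receptor of a ubiquitin ligase that acts in S phase (112.5 in knockdown, 481 in H2O2-treated and 587 in untreated wild type), and BRIP1, a DNA helicase that works with BRCA1 (69 in knockdown, 333 in H2O2-treated and 339.5 in untreated wild type).

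Other genes lay near untreated wild type in the H2O2-treated knockdown although they stood apart in H2O2-treated wild type. ID2, an inhibitor of basic helix-loop-helix factors, had 397.5 mean counts in knockdown, 1641.5 in H2O2-treated wild type and 361.5 in untreated wild type, a log2 difference of 0.08 ± 0.25 (error limit) from untreated cells. DPYSL3, a cytoskeletal protein of growing neurites, had 1795 in knockdown, 6661 in H2O2-treated and 1597.5 in untreated wild type, and TMEM97, the sigma-2 receptor, had 335.5 in knockdown, 1356 in H2O2-treated and 321.5 in untreated wild type. GALNT1, which starts mucin-type glycans, was at 0.55 ± 0.22, and VGLL4, a cofactor of TEAD factors, at -0.19 ± 0.25. In the opposite direction, MT-CO3, a mitochondrially encoded subunit of cytochrome c oxidase, had 198252.5 mean counts in knockdown, 86694.5 in H2O2-treated and 223687.5 in untreated wild type. CCDC94, a splicing factor, DAGLB, a diacylglycerol lipase, POLR2I, a subunit of RNA polymerase II, and SIGIRR, a receptor of the interleukin-1 family, had log2 differences of -0.42, -0.54, -0.52 and 0.07. These genes were picked by a rule that uses the H2O2-treated wild type values, so their return toward the untreated level is a description of how they were chosen.

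The mitochondrial genome was split by RNA class. Its 13 mRNAs had a median log2 difference of -0.50, with 2 of them (15.4%, against 12.5% of all genes), MT-ND3 and MT-ND6, subunits of respiratory complex I, at least 2-fold lower. MT-ND3 had 52130 mean counts in knockdown, 30407.5 in H2O2-treated wild type and 144736.5 in untreated wild type. MT-CO1, the catalytic subunit of cytochrome c oxidase, had 362555 in knockdown, 161060 in H2O2-treated and 338898.5 in untreated wild type, a log2 difference of 0.04 ± 0.20 (error limit). The ribosomal RNAs of the mitochondrion were higher: MT-RNR1 had 92178.5 mean counts in knockdown, 64901.5 in H2O2-treated and 9493.5 in untreated wild type, 9.35-fold above untreated cells, and MT-RNR2 was 2.90-fold above. MT-RNR2 had 176765.5 mean counts in knockdown, 155104 in H2O2-treated and 58743.5 in untreated wild type. How ribosomal RNA was treated in library making is not given in the sources used here, and its part in these values was not tested.

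Ribosomal protein genes stayed close to the median gene, with a median log2 difference of -0.28. Of 76 listed, 75 passed, 4 (5.33%) were at least 2-fold lower and none higher, against 12.5% and 9.39% of all genes. The lower genes included RPS10 (-2.55), RPL26 (-1.71) and RPL41 (-1.31), and RPL9 was the highest at 0.69. RPS10, RPL26 and RPL9 have unsettled lengths, and these genes have many processed pseudogenes among which reads could be split. RPL41 had 5802.5 mean counts in knockdown, 8299.5 in H2O2-treated wild type and 13833.5 in untreated wild type. RPL17 did not pass the filter.

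Of 29 targets of the tumour suppressor p53, 27 passed, 11 (40.7%) were at least 2-fold higher and none lower, against 9.39% and 12.5% of all genes, with a median of 0.52. CDKN1A, the p21 inhibitor of cell cycle kinases, had 58083.5 mean counts in knockdown, 32107 in H2O2-treated wild type and 15118.5 in untreated wild type, 3.70-fold above untreated cells. RRM2B, a ribonucleotide reductase subunit for DNA repair, was 3.31-fold and ZMAT3, an RNA-binding zinc finger protein, 3.27-fold higher. PLK2, TRIAP1 and FAS had log2 differences of -0.92, -0.62 and -0.11. XPC and PPM1D did not pass the filter.

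In the list of ATF4 targets and the unfolded protein response 23 of 25 passed, 7 (30.4%) were at least 2-fold higher and 1 (4.35%) lower, against 9.39% and 12.5% of all genes, with a median of 0.33. SESN2, a sestrin that restrains mTORC1, was 3.20-fold, CHAC1, which degrades glutathione, 2.96-fold and DNAJB9, an endoplasmic reticulum chaperone, 2.82-fold higher. The lower member was SLC7A11, the cystine transporter that feeds glutathione synthesis, with 464.5 mean counts in knockdown, 698.5 in H2O2-treated and 1166.5 in untreated wild type. XBP1 and STC2 had log2 differences of -0.37 and -0.31. GDF15 and VLDLR did not pass the filter.

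Targets of NRF2, the factor that drives antioxidant genes, had no common direction. Of 27 listed, 21 passed, with a median of 0.00, 1 at least 2-fold higher and 4 lower, which is below 9.39% and above 12.5% of all genes. The higher member was HMOX1, heme oxygenase, with 3075 mean counts in knockdown, 1308.5 in H2O2-treated wild type and 878 in untreated wild type. The lower members were the quinone reductase NQO1 (-1.55 ± 0.22, error limit), SLC7A11 (-1.38 ± 0.26), NFE2L2 (-1.15 ± 0.24), which encodes NRF2 itself, and GCLM (-1.01 ± 0.29), a subunit of the enzyme that starts glutathione synthesis. FTL and ME1 were at 0.94 ± 0.22 and 0.91 ± 0.25, short of a call. NQO1 had 1413 mean counts in knockdown, 3108.5 in H2O2-treated and 3995 in untreated wild type.

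The repair of single-strand breaks and base excision repair mend oxidised and broken DNA. Of 26 listed genes, 24 passed, 7 (29.2%) were at least 2-fold lower and none higher, against 12.5% and 9.39% of all genes, with a median of -0.53. FEN1, also counted under replication, and MUTYH, which removes adenine paired with oxidised guanine, were each 4.18-fold lower. XRCC1, which gathers the enzymes that seal single-strand breaks, had 586 mean counts in knockdown, 940.5 in H2O2-treated and 1986.5 in untreated wild type. PARG and TDP2 were at 0.40 and 0.25, neither of them a call. NEIL3 and APLF did not pass the filter.

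Heat shock genes and chaperones went both ways. Of 19 genes, which all passed, 6 (31.6%) were at least 2-fold higher, against 9.39% of all genes, and 2 (10.5%) lower, near the 12.5% of all genes, with a median of 0.07. The small heat shock proteins CRYAB, HSPB8 and HSPB1 were 5.64-fold, 2.99-fold and 2.76-fold higher, and HSPB1 had 42463.5 mean counts in knockdown, 37539 in H2O2-treated wild type and 14797.5 in untreated wild type. HSPA1A was 3.93-fold higher, but it and HSPA1B are near-identical copies among which reads can be split. HSPA8, the constitutive Hsc70, had 6422.5 mean counts in knockdown, 23578.5 in H2O2-treated and 19324.5 in untreated wild type, so it was low in the knockdown against both wild type groups. The other lower member was HSPE1, the mitochondrial co-chaperonin, 2.17-fold lower.

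Of 22 NF-kB targets 12 passed, 5 (41.7%) were at least 2-fold lower and none higher, against 12.5% and 9.39% of all genes, with a median of -0.61. The lower ones were the cytokines IL1B (-1.78 ± 0.33, error limit) and IL6 (-1.44 ± 0.36), the apoptosis inhibitor BIRC2 (-1.54 ± 0.23), NFKBIA and the transcription factor IRF1 (-1.05 ± 0.26). CXCL8, a chemokine for neutrophils, was highest at 0.82 ± 0.27, with 319 mean counts in knockdown, 662.5 in H2O2-treated and 173 in untreated wild type. Of 23 interferon response genes 10 passed, and 5 of these were higher and none lower, against 9.39% and 12.5% of all genes, among them ISG20 (10.4-fold), ISG15 (4.41-fold), IRF7 (3.01-fold) and IFI6 (2.88-fold). IFI6, an interferon-induced mitochondrial protein, had 2168 mean counts in knockdown, 1242 in H2O2-treated and 724.5 in untreated wild type. IFIT3 and IFI35 were at -0.70 and -0.94, and 13 members, MX1 and OAS1 among them, did not pass, so the list as a whole is not described by the 10 that did. Their median was 0.98, and with a mean value of at least 1 as the filter the list's median was -0.09.

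In the list of RNA polymerase II pausing and elongation 25 of 26 passed, 4 (16%) were at least 2-fold lower and none higher, against 12.5% and 9.39% of all genes, with a median of -0.12. The lower ones were LEO1 of the PAF1 complex (3.17-fold), the cyclin CCNT2 (2.56-fold) and the kinases CDK12 (2.45-fold) and CDK9 (2.31-fold). CDK9, which releases paused polymerase, had 787.5 mean counts in knockdown, 779.5 in H2O2-treated wild type and 1753 in untreated wild type. CCNK did not pass the filter. Of 16 partners of NuMA at the spindle 11 passed, and DYNC1H1, the heavy chain of dynein, was the 1 called, 2.06-fold higher (9.09% of those that passed, against 9.39% of all genes). GNAI2, a G protein subunit of the complex that anchors NuMA at the cortex, was at 0.74 ± 0.22 (error limit). INSC, GPSM2, EPB41, GNAI3 and FRMPD1 did not pass.

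**Figure D3:**
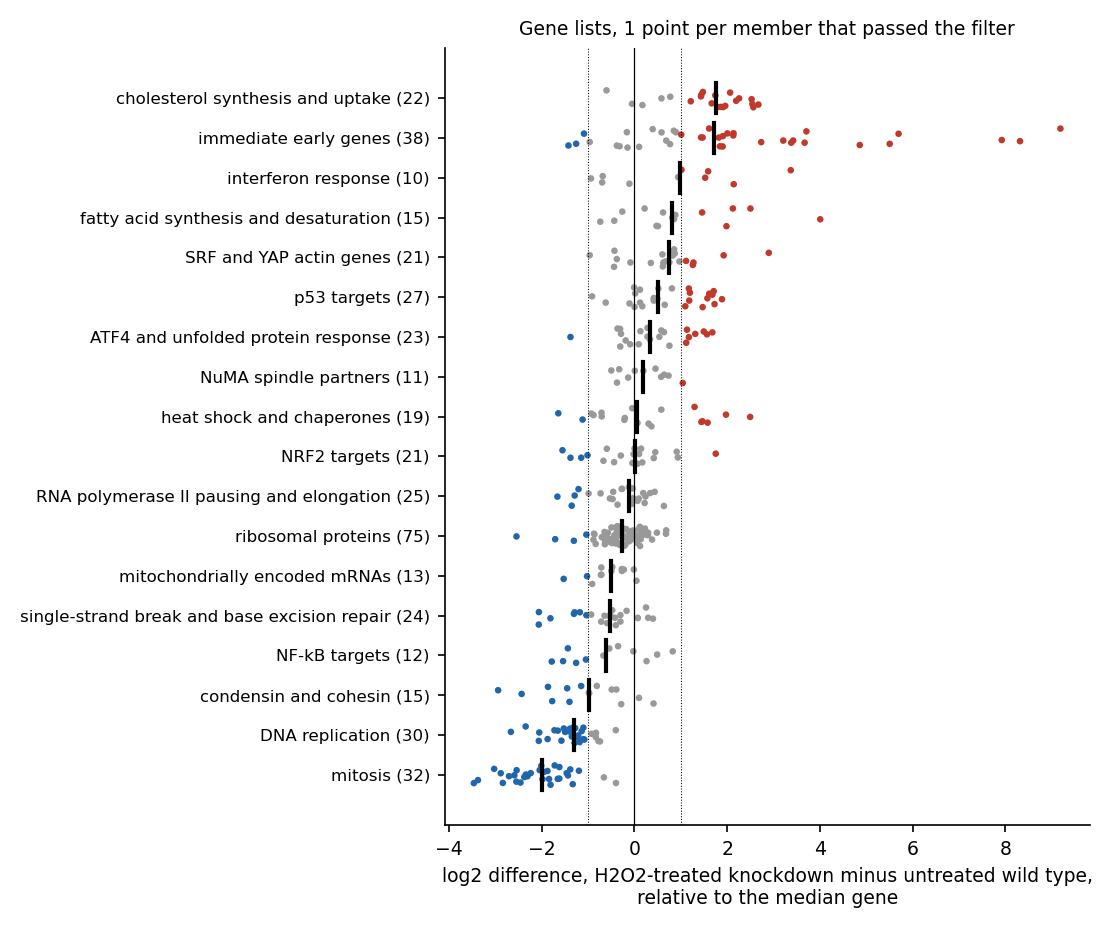
Log2 difference of H2O2-treated knockdown minus untreated wild type, relative to the median gene (horizontal), for the list members that passed the filter, 1 point each, with their number in brackets after the name. Black bars are list medians, dotted lines 2-fold, red members higher and blue members lower. Medians run from 1.77 for cholesterol genes to -2.0 for mitosis, and the widest spread is that of the immediate early genes.

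Marker genes were checked against the labelled cell type. Of 10 markers of differentiated retinal pigment epithelium only OTX2 and MITF passed, 6 had fewer than 10 mean counts in all groups, and TYRP1, DCT and TYR had no read in knockdown and untreated wild type. OTX2, a factor of eye development, had 160.5 mean counts in knockdown, 166.5 in H2O2-treated and 387 in untreated wild type, while RPE65, which defines the mature tissue, had 0.5 in knockdown, 6 in H2O2-treated and 0 in untreated wild type. The data therefore show little of the differentiated tissue in any group. Summed counts of all 10 were 805.5 in knockdown, 923.5 in H2O2-treated and 1081.5 in untreated wild type. Blood cell markers, 6 in all, summed to 5.5 in knockdown, 8.5 in H2O2-treated and 7 in untreated wild type, and none passed. Of 11 fibroblast or mesenchyme markers 6 passed: PDGFRB and COL1A1 were 5.67-fold and 2.48-fold higher and COL5A1 and FAP 2.91-fold and 2.09-fold lower, with sums of 53791.5 in knockdown, 37945.5 in H2O2-treated and 27483 in untreated wild type that are mostly VIM. Simple epithelium markers passed for KRT7, KRT8 and KRT18, none called, with sums of 29165 in knockdown, 43587 in H2O2-treated and 19577 in untreated wild type. Neuron markers passed for TUBB3 (2.75-fold higher) and MAP2 (2.32-fold lower), with sums of 399 in knockdown, 680.5 in H2O2-treated and 558.5 in untreated wild type. The part of a change in cell makeup in the results was not tested.

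Most U1, U4 and U5 genes, which encode short RNAs of the spliceosome, had few reads in untreated wild type, and U6 genes had few reads in knockdown and in untreated cells. Of 19 snRNA genes that passed, 13 were at least 2-fold higher in H2O2-treated knockdown and 1, RNU6-8, lower, with a median log2 difference of 4.23. All of the 13 but RNU5A-1 passed the filter through the knockdown value alone and so had to differ, and the count is a description. The U1 RNA pairs with splice donors, and the 10 genes of its family that passed summed to 572.5 mean counts in knockdown, 1420 in H2O2-treated wild type and 21 in untreated wild type. RNU1-106P, a copy that differs from RNU1-1 at 14 of 164 bases, ran the other way, with 9 in knockdown, 7 in H2O2-treated and 17 in untreated wild type. Without it the sums were 563.5 in knockdown, 1413 in H2O2-treated and 4 in untreated wild type, so the fold of sums was 26.3 with it and 136 without it. In untreated wild type 5 of the 10 had no read. With 3 counts over both untreated libraries as the floor, these 5 were at least 20.5- to 42.1-fold higher, for counting error only. The 5 U4, U4atac and U5 genes summed to 581 mean counts in knockdown, 996.5 in H2O2-treated and 87.5 in untreated wild type. Among them RNU4-47P was lower in knockdown (20) than in untreated wild type (34.5), and without it the fold of sums was 10.2 in place of 6.4. The 4 U6 genes summed to 56 in knockdown, 50.5 in H2O2-treated and 70.5 in untreated wild type. The U3 genes SNORD3A and SNORD3B-1, which guide processing of ribosomal RNA, summed to 872 in knockdown, 2203.5 in H2O2-treated and 87.5 in untreated wild type.

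RNU1-1 (chr1:16514122-16514285, minus strand, hg38, from GENCODE 29) is printed as an example of a U1 RNA, with its first 11 bases, which hold the stretch that pairs with the splice donor, in capitals. RNU1-2, RNU1-27P and RNU1-28P have the same 164 bases, so reads cannot be assigned among these 4 genes.
RNU1-1: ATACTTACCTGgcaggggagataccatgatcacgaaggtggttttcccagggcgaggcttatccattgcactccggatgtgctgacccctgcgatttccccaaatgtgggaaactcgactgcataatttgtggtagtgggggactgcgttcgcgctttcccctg

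RN7SK, the RNA that holds CDK9 inactive, had 792 mean counts in knockdown, 556 in H2O2-treated wild type and 134 in untreated wild type, a log2 difference of 2.5 ± 0.31 (error limit). Of 11 snoRNA genes that passed, the U3 pair was higher (18.2%) and 7 were lower (63.6%), against 9.39% and 12.5% of all genes. The lower ones were SNORD100, SNORD6, SNORD14A, SNORA33, SNORD99, SNORA77 and SNORD104. Among them SNORD100, SNORD6, SNORD14A and SNORA77 passed the filter through the untreated value alone. SNORD3B-1 of the U3 pair passed through the knockdown value alone, so these counts are a description. SNORD104 had 87.5 mean counts in knockdown, 148 in H2O2-treated and 269.5 in untreated wild type. The other lower ones lie at 115 mean counts or fewer in each group. Most snoRNAs are cut from introns of host genes, whereas U1, U3 and RN7SK have promoters of their own. The smallest RNAs can be lost or kept by size selection in library making, which is not described, and its part was not tested. Short genes can pass the filter with few reads: 39 of the genes that passed had fewer than 20 mean counts, and 4 had none.

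Calls depended on gene span, the distance from a gene's annotated start to its end. Protein-coding genes were put in 10 bins by span. Among the shortest genes (median 3.58 kb) 20.6% were at least 2-fold lower in H2O2-treated knockdown and 8.85% higher, and among the longest (median 223 kb) 5.52% were lower and 11% higher, against 12% and 8.78% of all 8697 protein-coding genes. The share of lower genes was smaller in each successive bin, while the share of higher genes had no such trend. The median log2 difference was -0.32 in the shortest bin and 0.17 in the longest. Between H2O2-treated and untreated wild type the medians of those bins were -0.55 and 0.27, and between knockdown and H2O2-treated wild type 0.24 and -0.14. The values run in opposite directions in these component comparisons, which share the H2O2-treated wild type libraries.

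**Figure D4:**
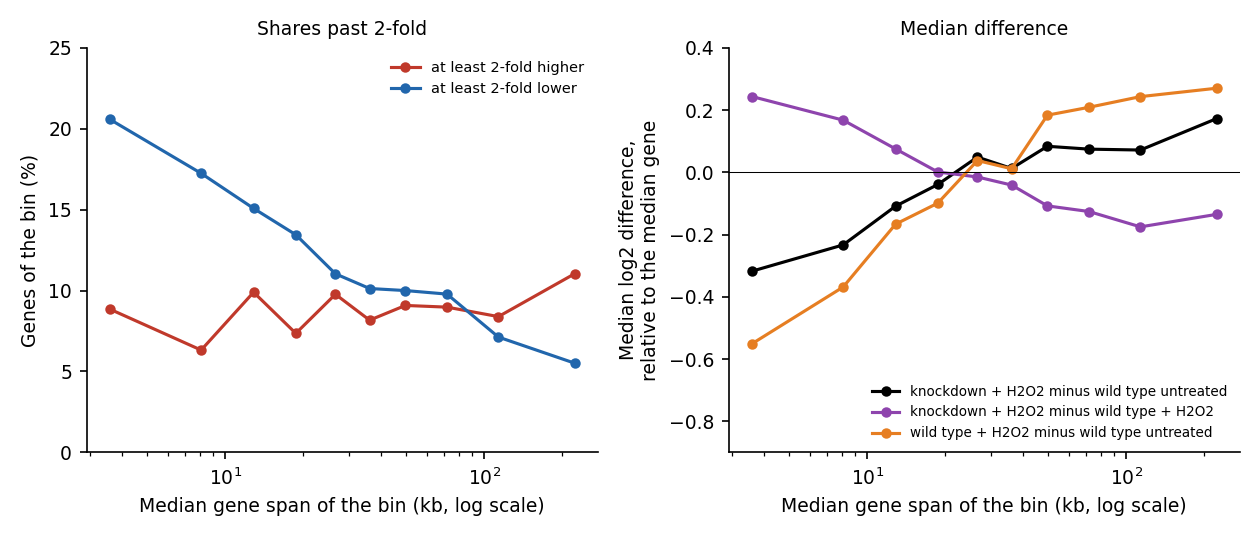
Protein-coding genes in 10 bins of gene span (horizontal, median of the bin in kb, log scale). The left panel gives the percent of each bin at least 2-fold higher (red) or lower (blue) in H2O2-treated knockdown than in untreated wild type, where lower genes run from 20.6% in the shortest bin to 5.52% in the longest. The right panel gives the median log2 difference of that comparison (black), of knockdown from H2O2-treated wild type (purple) and of H2O2-treated from untreated wild type (orange).

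Promoters were searched for short motifs, chosen after the values had been seen, in the window from 250 bases before to 50 after the start, on both strands. Of 8697 protein-coding genes that passed the filter, 7258 (83.5%) had a RefSeq promoter. The CHR motif TTTGAA was found in 8.75% of these windows, in 17.3% of those of genes at least 2-fold lower, in 28.8% of genes at least 4-fold lower and in 5.58% of genes at least 2-fold higher. In the mitosis list 17 of 27 promoters held it, and in the replication list 1 of 26. The E2F-type motif TTTNNCGC was found in 11% of all windows, in 17.6% of genes at least 4-fold lower, in 17 of 26 replication genes and in 2 of 27 mitosis genes. The lists of mitosis and replication thus differed in which of these letters their promoters carry. The CKAP2L, NUF2 and CDT1 windows printed above were picked among list members that hold the motif, so they had to show it.

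On the higher side, the TATA box TATAAA was in 4.90% of all windows, in 18.4% of genes at least 4-fold higher, in 5.23% of genes at least 4-fold lower and in 8 of 26 immediate early genes. The cAMP response element TGACGTCA was in 3.83% of all windows, 8.05% of genes at least 4-fold higher and 5.88% of genes at least 4-fold lower. The AP-1 motif TGANTCA was in 4.20% of all windows, 5.75% of genes at least 4-fold higher and 6.54% of genes at least 4-fold lower. CArG boxes were in 1.17% of all windows, in 6 of 17 genes of the SRF and YAP list and in 1 of 26 immediate early genes. CCAAT, the letters bound by NF-Y, was in 37.2% of all windows, in 14 of 16 cholesterol genes and in 20 of 27 mitosis genes. The GC box GGGCGG was in 73.2% of all windows and in 60.1% of genes at least 4-fold lower. Matches are letters in a window and do not show that a factor binds there.

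**Figure D5:**
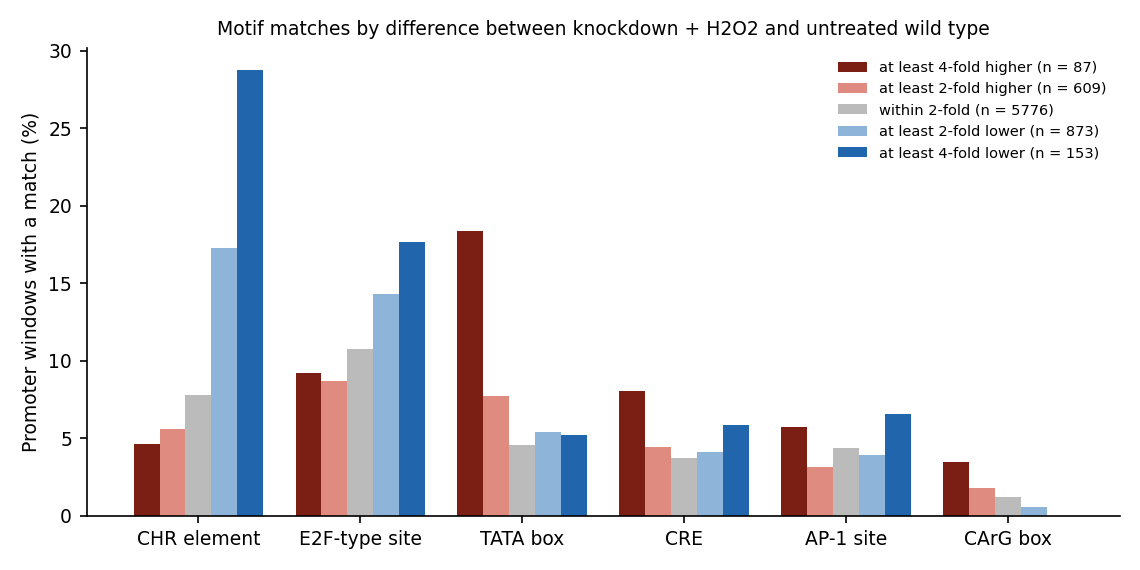
Percent of promoter windows with a match to each of 6 motifs (vertical), for protein-coding genes grouped by their difference between H2O2-treated knockdown and untreated wild type, where genes at least 4-fold from the median gene are also counted in the 2-fold group of their direction. CHR elements run from 4.6% in the 87 genes at least 4-fold higher to 28.8% in the 153 genes at least 4-fold lower, and TATA boxes stand at 18.4% in those 87 genes.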

How the data were processed

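The 4sU-seq data are 6 RPE1 libraries of 3 groups, 2 each, and groups were taken from the labels. The submitters' processing notes name build hg38 and the tools STAR 2.5, DESeq2 and DESeq but give them no role. Neither the counting tool nor its strand setting nor the annotation is given in the sources used here, so overlapping or antisense genes may share reads. Per gene, the authors deposited 2 tables with a signal value per gene and group, a log2 fold change equal to the log2 ratio of the values, and a p-value and adjusted p-value from a program that is not stated. Both tables hold a value for H2O2-treated wild type, and the constant ratio of these, 1.07, put the knockdown on the scale of the untreated cells. The unit of the signal is not stated in the deposited tables. From its steps, it was worked out as the mean count of the group's libraries plus 1, divided by a gene length and multiplied by a common factor. Whole mean counts, or whole counts divided by 2, came out for all 60448 genes within a tolerance of 1e-06. Lengths matched the mean transcript length of GENCODE 29 for 84.8% of the genes that passed the filter. For the others, called unsettled, all mean counts may be wrong by 1 shared factor, which leaves differences as they are. Intervals and floors cover counting error only and use counts without the added 1. How deeply each library was sequenced is unknown.

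Differences were centred by 0.054. Genes were called at 2-fold among those with a mean value of at least 5. The error limit of a difference is the square root of the summed squares of the standard errors implied by the authors' p-values of both component comparisons, taken from the median of 101 neighbours in mean count for 29 genes that gave none. Tests per library, the replicate block and leaving out replicates were planned, but could not be run on pooled values. No column of per-sample values was left unmapped (0). Named genes were NUMA1, the 10 protein-coding genes with the largest positive and negative differences and at least 100 mean counts in the higher group, 5 per direction among genes within 1.5-fold between the wild type groups, 5 per direction among genes within 1.5-fold between knockdown and untreated wild type, up to 3 at each end of each list, and all members where a count was 5 or lower. Some genes that this rule names are not reported here. Members and gene lists were chosen with earlier results of these data known. Promoters were matched through Entrez gene IDs. The steps were tested on simulated data. Python 3.11.15, pandas 2.3.3, NumPy 2.4.6 and SciPy 1.17.1 were used.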

Additional observations from a re-analysis of the deposited data

How the results depend on the processing

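Calls came to 874 higher and 1167 lower genes. With a mean value of at least 1 as the filter they came to 1769 and 2127, and with no filter to 4933 and 4824, where more genes were counted. At 1.5-fold they came to 1920 and 2244, and at 4-fold to 175 and 213. No centring gave 955 and 1076, total counts 688 and 1458, the median of genes with both values at least 20 gave 767 and 1307, and that of genes with at least 50 mean counts 947 and 1084. An added count of 5 gave 858 and 1137, both values at least 5 gave 641 and 834, and asking for over 2 error limits gave 865 (9.3%) and 1144 (12.3%). Alternatives chosen after seeing the data were totals without mitochondrial genes (629 and 1591), totals of genes with a settled length (725 and 1379) and protein-coding genes alone (764 and 1043). Of 220 list medians under these settings 210 moved by less than their error limit and 10 moved by more, and of 287 values of named genes 284 and 3. Settings that change only the centring shift every difference by 1 constant, at most 0.19, and the smallest error limit here was 0.21. Under those settings no value could move by more than its limit, and none at 2-fold could change sign. Their part of the counts is therefore no check. The error limit of a list median is the median limit of its members. No value at least 2-fold from the median gene changed sign. Of values nearer to it, 16 list medians (of 5 lists) and 13 gene values (ID2, DPYSL3, TMEM97 and SIGIRR, at most 0.11 as reported) did. The 3 genes were EGR4, GAST and VAMP8, at 7.61, 4.93 and 4.37 with an added count of 5. Among list medians, a mean value of at least 1 as the filter gave -0.09 for interferon response (0.98 as reported), 0.27 for fibroblast (0.62) and -0.86 for NF-kB (-0.61). Both values at least 5 gave -1.21 for neuron (0.12), 0.97 for fibroblast, 1.22 for immediate early genes (1.72) and -0.65 for condensin and cohesin (-0.99). No filter gave 0.26 for interferon response, 0.15 for differentiated retinal pigment epithelium (-0.79) and 0.27 for fibroblast. Medians of NRF2 targets (0.00) and heat shock genes (0.07) changed sign within their error limits. No paired analysis was possible because the tables hold 1 pooled value per group, and for the same reason no replicate could be left out.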

Other observations

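Long noncoding RNAs, chosen here after their values were seen, held some of the largest negative differences. LINC00342 had mean counts of 15.5 in H2O2-treated knockdown, 244 in H2O2-treated wild type and 443 in untreated wild type. MIR155HG, the host transcript of miR-155, had 21.5 in knockdown, 60 in H2O2-treated and 246.5 in untreated wild type, and MIR222HG, the host of miR-221 and miR-222, had 48 in knockdown, 203.5 in H2O2-treated and 499.5 in untreated wild type. Of 155 lincRNA genes that passed the filter, 21 were at least 2-fold higher and 35 lower (13.5% and 22.6%), against 8.78% and 12% of protein-coding genes. Among 120 genes annotated as antisense, 27 were higher and 23 lower (22.5% and 19.2%). MALAT1 and NEAT1, abundant nuclear RNAs, were at log2 differences of 0.69 and 0.22, short of a call.

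By chromosome, the median log2 difference of protein-coding genes ran from -0.16 on chromosome 16 to 0.17 on chromosome 21 among nuclear chromosomes, and the 601 genes on chromosome 19 had a median of 0.03. On chromosome 19 the median was 0.31 between knockdown and H2O2-treated wild type and -0.26 between H2O2-treated and untreated wild type, values that share the H2O2-treated wild type libraries.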
